A study of Homo sapiens with 12 samples.

Results

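Messenger RNA of PANC1 and BXPC3, both established human lines of pancreatic ductal adenocarcinoma, was compared after culture inside collagen hydrogels. The comparison covered 15471 of the 16299 genes in the deposited table: those that reached 1 RPKM (a density of reads per unit of gene length, scaled to the size of the library) in at least 2 of the 4 collagen libraries. There were 2 libraries per line in collagen. In the same series each line was also embedded in 5% or 7.5% GelMA (gelatin carrying methacryloyl groups, a cross-linkable gelatin gel), with 2 libraries each, giving 12 libraries in 6 groups. Both lines were grown in high-glucose medium with serum and antibiotics, and poly-A RNA was sequenced. The labels name no treatment or genetic change beyond the choice of gel. How long the cells stayed in the gels, how stiff the gels were and whether replicates came from separate cultures is not stated in the labels, so a p-value reflects the scatter of these libraries and that scatter may be purely technical. Each line stands for 1 tumour, so a difference between the lines cannot be told apart from a difference between any 2 tumours.

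Pancreatic ductal adenocarcinoma arises in the exocrine pancreas and grows in a collagen-rich stroma. Its cells range from an epithelial state, held together by E-cadherin, tight junctions and desmosomes, to a mesenchymal state with vimentin, N-cadherin and the repressors ZEB1 and SNAI1, which bind E-box motifs in the promoters of junction genes. Tumours are further sorted into a classical type, marked by GATA6, trefoil factors and mucins, and a basal-like type marked by TP63 and squamous keratins. BXPC3 is commonly described as epithelial and lacking SMAD4, the shared mediator of TGF-beta and BMP signals, and PANC1 as poorly differentiated.

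SMAD4 (ENSG00000141646, chromosome 18, 51028394 to 51085045, GRCh38) was at -5.92 and -5.51 log2 RPKM in BXPC3 and at 4.54 and 4.55 in PANC1, so the library labels and the known SMAD4 status of BXPC3 went together. The libraries of a line were close: values correlated across members at 0.9925 in BXPC3 and 0.9934 in PANC1, and the standard deviation (SD) of the difference between replicates was 0.348 and 0.329 log2. Between lines the correlation was 0.5339 to 0.5409. The values had the same distribution in every library above the lowest ranks, so sequencing depth is unknown and precision comes only from the replicate spread. Markers of other cell types were few: 4 of 12 fibroblast and stellate entries, 3 of 12 immune, 3 of 8 endothelial and 2 of 11 acinar and endocrine entries were members. Summed RPKM was 20.3 to 20.4 in BXPC3 and 163 to 170 in PANC1 for the fibroblast entries (PDGFRA, COL1A1, COL3A1 and CSPG4), 17.2 to 18.7 and 6.51 to 9.01 for the immune entries, 3.32 to 4.19 and 1.86 to 1.97 for the endothelial entries, and 38.3 to 47.9 and 1.51 to 1.70 for the acinar and endocrine entries. The fibroblast genes PDGFRB, LUM, DCN and FAP and the leukocyte gene PTPRC were not among the members. The label of each library names only its line and its gel, and no other cell type. In these bulk libraries fewer cells with a transcript and less of it per cell cannot be told apart.

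Most genes differed between the lines. Of the 15471 members 7357 were higher in PANC1 and 6000 lower at an adjusted p under 0.05, beside 47.5% and 38.7% of the 15794 genes tested, and 2114 did not pass. Counts over gene lists below are to be read beside those shares. At least 4-fold differences were found for 1868 members in the higher and 1992 in the lower direction, beside 12.4% and 13.0% of all genes tested. The median difference over the members (PANC1 minus BXPC3, in log2 RPKM throughout) was 0.13, so differences are best read against that shift: with the median set to 0, 6658 members were higher and 6680 lower. Among the 12496 members above 1 RPKM in all 4 libraries, 5914 were higher, 4558 lower, and only 655 and 734 were at least 4-fold apart. A further 1320 members reached 1 RPKM in both BXPC3 libraries and no PANC1 library, and 1299 the reverse. These genes had to differ to become members, and 1182 and 1120 of them were at least 4-fold apart. The size of such a difference depends on an offset below 1 RPKM that is unknown. Protein-coding genes made up 88.3% of those above 1 RPKM everywhere, 69.8% of those reached in BXPC3 alone and 76.3% of those reached in PANC1 alone. Just inside the threshold, 77 members had a second highest value of 0.003 to 0.097, and 85 genes just outside had -0.099 to -0.003.

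KRT5 and PSAP marked the ends of the scale of differences, which are given with ± the standard error of the fit. KRT5, a type II keratin of basal cells (ENSG00000186081, chromosome 12, 52514575 to 52520687), was at 11.78 and 11.73 log2 RPKM in BXPC3 and at -3.87 and -3.83 in PANC1, a difference of -15.61 ± 0.46 log2 (adjusted p = 2.72e-10). PSAP encodes prosaposin, the precursor of lysosomal saposins (ENSG00000197746, chromosome 10, 71816298 to 71851375). It was at -5.34 and -5.17 log2 RPKM in BXPC3 and at 11.56 and 11.65 in PANC1, a difference of 16.86 ± 0.12 log2 (adjusted p = 6.24e-14). Both were picked as the ends of that scale among members that passed, so a wide separation followed from the choice. Each reached 1 RPKM in its higher line alone. With 1 added to each RPKM before the log, the differences were -11.66 for KRT5 and 11.57 for PSAP.

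The other genes at the low end of PANC1, ranked by difference among those above a mean of 3 log2 RPKM in the higher line, were of squamous, mucosal and surface kinds. They were KRT6A (-15.52), the adhesion protein gene CEACAM5 (-13.57), the membrane protease gene TMPRSS4 (-13.56), MIR205HG (-13.31), which hosts the epithelial miRNA miR-205, LY6D (-13.18), the giant cadherin gene FAT2 (-13.09), the serpin gene SERPINB3 (-12.79), the gel-forming mucin gene MUC2 (-12.69), IGFL2-AS1 (-12.35), the interferon-induced IFI44L (-12.25) and the stress sensor gene ERN2 (-12.22). IGFL2-AS1 is an antisense gene, and the strand setting of the counting is not given in the sources used here. All were at most -3.5 log2 RPKM on average in PANC1 (LY6D), so they became members through BXPC3 alone and had to differ. Passing the test was a condition of the ranking, and the adjusted p-values ran from 2.21e-12 (MIR205HG) to 3.84e-07 (MUC2).

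At the high end of PANC1 the genes were more mixed in kind. They were the imprinted long non-coding RNA MEG3 (14.28), the axonal motor gene KIF1A (13.57), the calcium channel gene CACNA1H (13.42), the receptor tyrosine kinase gene RET (13.38), the mitophagy receptor gene BNIP3 (13.02), the tetraspanin gene CD81 (12.93), the citrullinating enzyme gene PADI2 (12.86), DKK3 (12.55), the monocyte chemokine gene CCL2 (12.54), the epidermal kinase gene RIPK4 (12.36) and the laminin gene LAMB2 (12.32). CCL2 was at -3.28 and -1.86 log2 RPKM in BXPC3 and at 10.07 and 9.87 in PANC1, with BXPC3 libraries that were not alike. KIF1A and CD81 had BXPC3 libraries over 2 log2 apart, at -4.76 and -7.5 for KIF1A and -7.4 and -4.58 for CD81, all far under 1 RPKM. The standard errors ran from 0.12 for PSAP to 1.37 for CACNA1H.

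**Figure D1:**
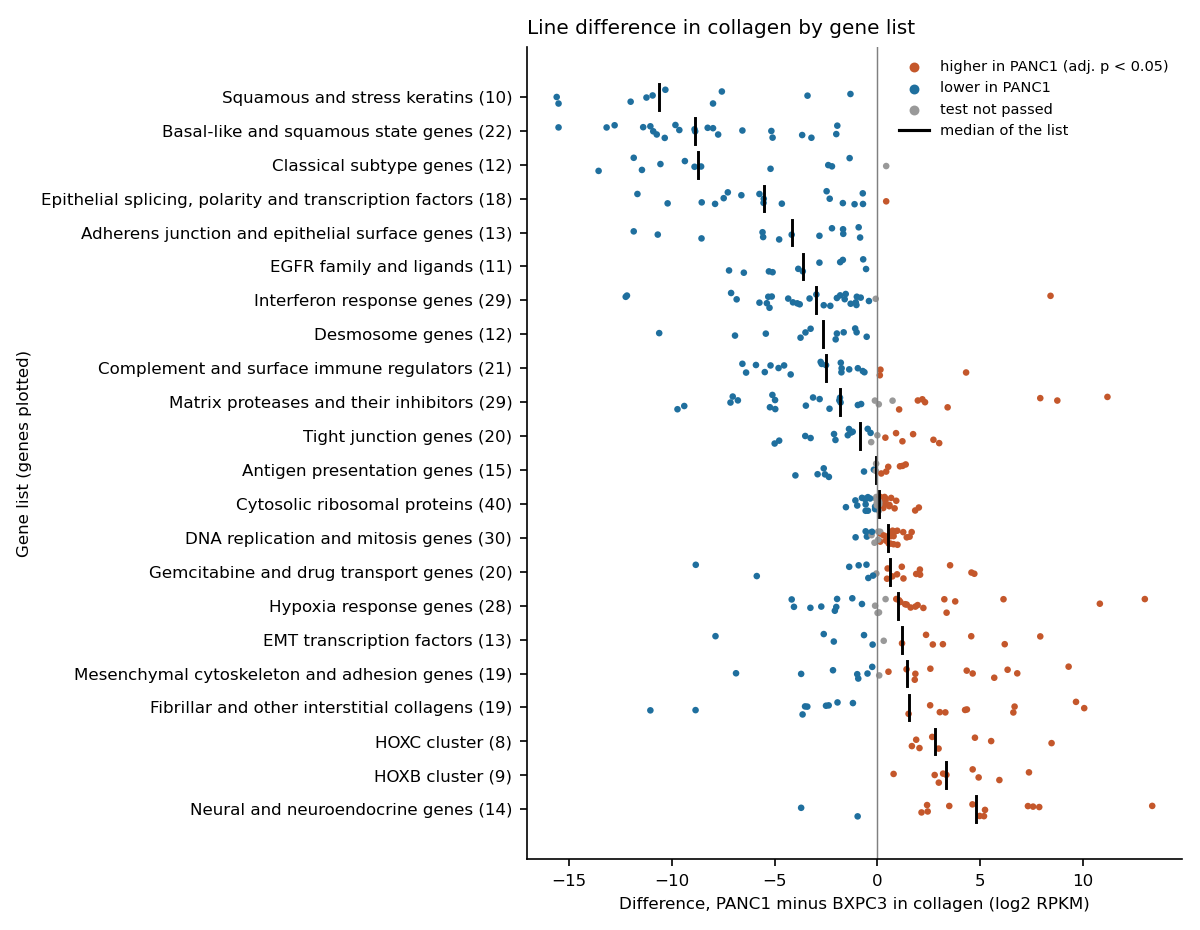
Line difference in collagen (x axis, PANC1 minus BXPC3 in log2 RPKM) for 22 of the 48 gene lists (y axis, with the number of members). Each point is 1 gene, orange where higher in PANC1, blue where lower and grey where the test was not passed, and the black bar is the median of the list. The medians run from -10.63 for squamous keratins to 4.80 for neural genes.

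Epithelial adhesion genes were lower in PANC1 as a body. All 13 members of the adherens junction and surface list passed in that direction, with a median of -4.17, and 11 of them were above 1 RPKM in all 4 libraries with a median of -2.82. CDH1, which encodes E-cadherin (ENSG00000039068, chromosome 16, 68737225 to 68835548), was at 8.37 and 8.4 log2 RPKM in BXPC3 and at 4.2 and 4.23 in PANC1, a difference of -4.17 ± 0.06 log2 (adjusted p = 1.95e-12). It was reduced in PANC1 but still well above 1 RPKM. EPCAM, another adhesion molecule of epithelia, was at 6.07 and 5.92 log2 RPKM in BXPC3 and at 3.86 and 3.71 in PANC1, a difference of -2.21 ± 0.07 log2 (adjusted p = 2.7e-10). The catenin gene CTNNB1 differed least of the named members (-0.84), and CEACAM6 most (-11.86).

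Transcription factors and splicing regulators that keep cells epithelial were lower in PANC1 in 17 of 18 members, with a median of -5.53. Over the 9 members above 1 RPKM in all libraries the median was -1.68, and 8 reached 1 RPKM in BXPC3 alone. GRHL2, a grainyhead factor that drives junction genes, was at 6.57 and 6.51 log2 RPKM in BXPC3 and at -3.85 and -3.48 in PANC1, a difference of -10.21 ± 0.38 log2 (adjusted p = 1.3e-09). ESRP1 encodes a splicing factor that sets epithelial isoforms. It was at 6.81 and 6.74 log2 RPKM in BXPC3 and at 2.34 and 1.9 in PANC1, a difference of -4.65 ± 0.12 log2 (adjusted p = 1.21e-10). Its relative ESRP2 differed by -2.32. EHF (-11.68), KLF5 (-7.28), OVOL2 (-5.74) and the polarity gene CRB3 (-5.53) went the same way. GRHL3 was the exception, at 2.77 and 3.1 log2 RPKM in BXPC3 and at 3.28 and 3.45 in PANC1, a small difference of 0.43 ± 0.11 log2 (adjusted p = 0.004).

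Tight junction genes were split. Of 20 members 12 were lower in PANC1, 6 higher and 2 did not pass, and the median was -0.83. CLDN1 was at 8.23 and 8.2 log2 RPKM in BXPC3 and at 4.77 and 4.65 in PANC1, a difference of -3.51 ± 0.08 log2 (adjusted p = 4.22e-11). CLDN3, a claudin of simple epithelia, went the other way: it was at 2.51 and 2.89 log2 RPKM in BXPC3 and at 5.7 and 5.71 in PANC1, a difference of 3.01 ± 0.16 log2 (adjusted p = 2.1e-08). OCLN, which encodes occludin, was also higher in PANC1 (1.22), while CLDN7 (-1.44) and CLDN4 (-0.33) were lower. All 12 desmosome members were lower in PANC1, from DSC2 (-0.52) and JUP (-1.01) to DSG3 (-10.62). Without the second BXPC3 library the DSC2 difference was -0.31 and did not pass (limma, adjusted p = 0.0596). The plaque protein gene DSP was at 9.43 and 9.59 log2 RPKM in BXPC3 and at 6.13 and 6.38 in PANC1, a difference of -3.25 ± 0.11 log2 (adjusted p = 7.51e-10). It was therefore lower but still abundant in PANC1.

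Promoters of junction genes carry E-boxes that ZEB and SNAI repressors can bind, and the sequences are printed to show where such motifs lie in genes that differed between the lines. Windows from 250 bases before to 50 after each start site were taken from RefSeq (GRCh38.p14). Of CDH1, EPCAM, CLDN7, CRB3 and VIM, 3 of 5 matched an entry. Each line below gives the 250 bases before the start, 5′ to 3′ on the gene's strand, with every match to CACCTG or its reverse complement CAGGTG in capitals.

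CRB3 (chr19:6464021-6464270, plus strand): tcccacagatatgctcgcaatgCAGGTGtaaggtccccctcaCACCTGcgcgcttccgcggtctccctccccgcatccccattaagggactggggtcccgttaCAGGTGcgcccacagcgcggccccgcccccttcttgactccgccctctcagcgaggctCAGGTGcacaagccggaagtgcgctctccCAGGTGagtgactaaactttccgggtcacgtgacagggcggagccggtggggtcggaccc

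CLDN7 (chr17:7262479-7262728, minus strand): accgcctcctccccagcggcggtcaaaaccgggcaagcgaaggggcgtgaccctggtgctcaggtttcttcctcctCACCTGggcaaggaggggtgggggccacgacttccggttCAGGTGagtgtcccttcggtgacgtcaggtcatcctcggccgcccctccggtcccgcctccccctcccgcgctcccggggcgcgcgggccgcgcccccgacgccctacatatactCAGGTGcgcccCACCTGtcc

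VIM (chr10:17227991-17228240, plus strand): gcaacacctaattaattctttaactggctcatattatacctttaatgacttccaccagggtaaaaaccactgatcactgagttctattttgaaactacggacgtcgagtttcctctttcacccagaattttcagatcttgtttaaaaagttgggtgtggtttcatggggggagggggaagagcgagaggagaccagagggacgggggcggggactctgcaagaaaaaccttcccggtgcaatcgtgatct

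The first bases of the 5 CRB3 matches lay at -228, -208, -147, -89 and -60 from the start site. In the CLDN7 window matches began at -174, -135, -20 and -9, with another at 6 after the start, and the second CLDN7 window, from an upstream start, held 0. These letters were not found in the VIM window. A match occurred in 20.6% of all 35116 promoter windows (7231), in 26.5% of the lower members with a window (1125 of 4251 genes, any window counted), in 23% of the higher members (1289 of 5600) and in 24.3% of all members (2751 of 11335). The matches describe the sequence and are not measured binding sites.

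Of 5 simple keratin members, all above 1 RPKM in all 4 libraries, 3 were higher in PANC1 and 2 lower. KRT8 was at 9.64 and 9.66 log2 RPKM in BXPC3 and at 10.7 and 10.37 in PANC1, a difference of 0.88 ± 0.09 log2 (adjusted p = 6.17e-06), and KRT18 was likewise higher (0.73). KRT19 was lower by a moderate amount (-1.55) and KRT7, a ductal keratin, by much more. KRT7 was at 10.29 and 10.27 log2 RPKM in BXPC3 and at 1.83 and 1.8 in PANC1, a difference of -8.46 ± 0.06 log2 (adjusted p = 6.24e-14). All 10 squamous and stress keratin members were lower in PANC1, with a median of -10.63, and 9 of them reached 1 RPKM in BXPC3 alone. KRT17 was at 11 and 11.25 log2 RPKM in BXPC3 and at -1.48 and -0.29 in PANC1, a difference of -12.01 ± 0.35 log2 (adjusted p = 2.25e-10). KRT15 was the one member above 1 RPKM in all 4 libraries (means of 6.42 in BXPC3 and 5.11 in PANC1, difference -1.31). The keratins are a multigene family, and reads shared by close copies such as KRT6A and KRT6B make their separate values uncertain.

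The same held for other genes of the basal-like state. Its 22 members were all lower in PANC1, with a median of -8.88, 17 of them reached in BXPC3 alone, and the 4 above 1 RPKM in every library had a median of -2.61. TP63, the master regulator of squamous identity, was at 7.44 and 7.55 log2 RPKM in BXPC3 and at -0.62 and 0.11 in PANC1, a difference of -7.75 ± 0.22 log2 (adjusted p = 2.04e-10). TRIM29 (-10.91), SERPINB5 (-11.05) and S100A2 (-8.0) followed. Genes of the cornified envelope, the protein shell of squamous cells, were lower in 11 of 13 members, among them SPRR1B (-11.87) and IVL (-7.89), and SBSN was higher (2.61). All 11 reached 1 RPKM in BXPC3 alone and so had to differ to become members. CNFN, the one member above 1 RPKM in all 4 libraries, did not pass (-0.08).

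Genes of the classical type were also higher in BXPC3, in the same libraries as the squamous ones. Of 12 members 11 were lower in PANC1, with a median of -8.74, but 8 of them reached 1 RPKM in BXPC3 alone, and the 2 above 1 RPKM in all 4 libraries had a median of -2.3. LGALS4 did not pass (0.43, and 0.79 without the second BXPC3 library, which then passed). TFF1, a secreted trefoil peptide of mucosa, was at 4.6 and 5.7 log2 RPKM in BXPC3 and at -3.5 and -3.37 in PANC1, a difference of -8.58 ± 0.34 log2 (adjusted p = 2.07e-09). AGR2, a folding enzyme of mucus-secreting cells, was closer (means of 7.26 in BXPC3 and 4.87 in PANC1, difference -2.39). Mucin genes were lower in PANC1 in 7 of 8 members, of which 5 reached 1 RPKM in BXPC3 alone. The 2 above 1 RPKM in all 4 libraries had a median of -1.21. MUC1 (-1.82) and MUC16 (-0.60) were above 1 RPKM in both lines, whereas MUC4 (-8.0) and MUC5AC (-6.69) were not. MUC12 alone was higher in PANC1, at -3.04 and -2.67 log2 RPKM in BXPC3 and at 0.89 and 0.91 in PANC1, a difference of 3.76 ± 0.31 log2 (adjusted p = 7.3e-07).

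**Figure D2:**
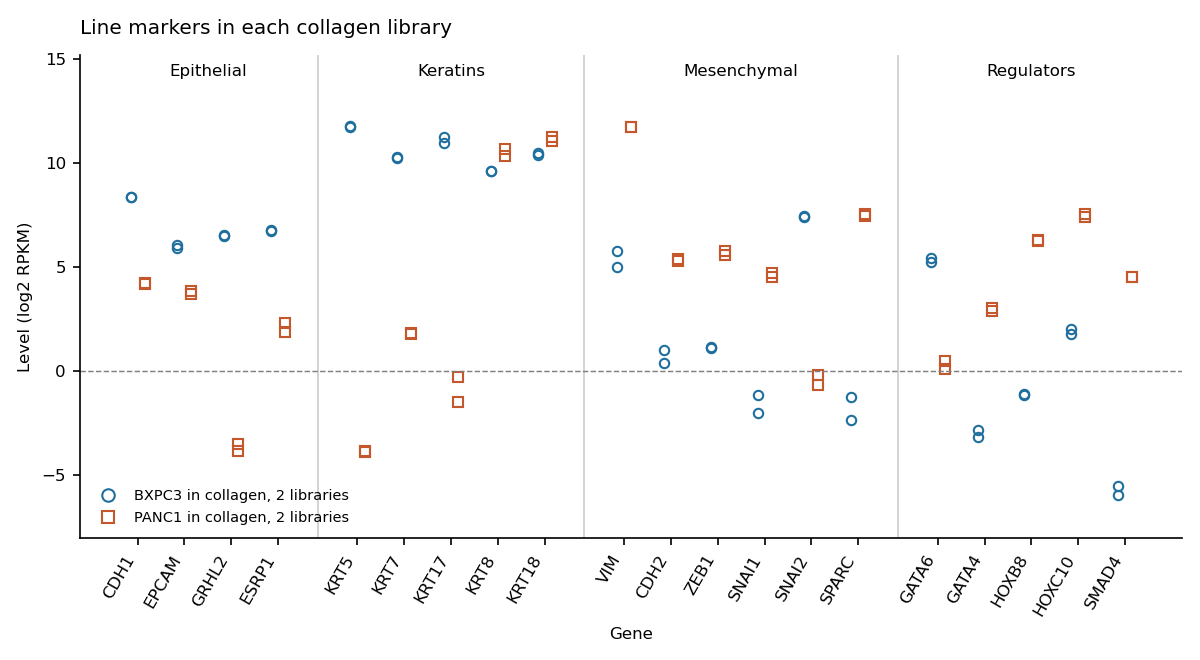
Levels (y axis, log2 RPKM) of 20 genes (x axis) in each collagen library, with BXPC3 as blue circles and PANC1 as orange squares, and the dashed line at 1 RPKM. The 2 points of a line lie close together for most genes, and SNAI2 is the one mesenchymal gene shown that is higher in BXPC3 (7.42 and 7.49, against -0.18 and -0.66).

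On the mesenchymal side the lines did not follow a single order. Of 13 members among the transcription factors of epithelial to mesenchymal transition 7 were higher in PANC1, 5 lower, and ZEB2 did not pass (0.31). These counts were near the shares of 47.5% and 38.7% over all genes tested. ZEB1 was at 1.11 and 1.16 log2 RPKM in BXPC3 and at 5.62 and 5.78 in PANC1, a difference of 4.57 ± 0.11 log2 (adjusted p = 5.74e-11). SNAI1 was at -2.0 and -1.15 log2 RPKM in BXPC3 and at 4.73 and 4.52 in PANC1, a difference of 6.2 ± 0.29 log2 (adjusted p = 6.79e-09). The related repressor SNAI2, also called SLUG, was reversed: it was at 7.42 and 7.49 log2 RPKM in BXPC3 and at -0.18 and -0.66 in PANC1, a difference of -7.88 ± 0.18 log2 (adjusted p = 4.88e-11). SNAI1 and SNAI2 thus stood highest in opposite lines. The E-box letters shown above for CRB3 and CLDN7 are those that the ZEB and SNAI repressors are known to bind. Any part of these repressors in the levels of CRB3 and CLDN7 was not tested. TWIST2 (7.93) and FOXC2 (3.19) were higher in PANC1, and FOXC1 (-2.61) and RUNX1 (-2.12) lower.

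Among mesenchymal cytoskeleton and adhesion genes 11 of 19 were higher in PANC1 and 7 lower, with a median of 1.42, and GAS6 did not pass (0.09). Over all genes tested 47.5% were higher and 38.7% lower. VIM, which encodes the intermediate filament vimentin (ENSG00000026025, chromosome 10, 17228259 to 17237593), was at 5.01 and 5.78 log2 RPKM in BXPC3 and at 11.73 and 11.73 in PANC1, a difference of 6.34 ± 0.18 log2 (adjusted p = 1.82e-10). It was well above 1 RPKM in both lines. CDH2, encoding N-cadherin, was at 1.01 and 0.40 log2 RPKM in BXPC3 and at 5.39 and 5.31 in PANC1, a difference of 4.64 ± 0.19 log2 (adjusted p = 2.27e-09). SPARC, a collagen-binding secreted protein gene, differed more (9.31), as did THY1 (6.81). Lower in PANC1 were the mesenchymal cadherin gene CDH11, at 4.97 and 4.7 log2 RPKM in BXPC3 and at -1.71 and -2.38 in PANC1 (difference -6.88), the smooth muscle actin gene ACTA2 (-2.16) and the fibronectin gene FN1 (-0.98). Summed RPKM over the 19 members was 1050 to 1100 in BXPC3 and 5650 to 5890 in PANC1, and over the 13 epithelial surface members 8290 to 8350 and 768 to 798. The fibroblast entries were higher in PANC1 too, COL1A1 (3.31), COL3A1 (3.04) and CSPG4 (5.05) but not PDGFRA (-6.95), and their part in this list was not tested.

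Transcription factors of the foregut and pancreas were divided evenly, with 9 of 21 members higher in PANC1, 9 lower and 3 not passing, among them FOXA2 (0.05) and PDX1 (-0.22). The GATA pair was exchanged. GATA6, a marker of the classical type, was at 5.27 and 5.45 log2 RPKM in BXPC3 and at 0.13 and 0.49 in PANC1, a difference of -5.05 ± 0.14 log2 (adjusted p = 1.78e-10). GATA4 was at -3.15 and -2.81 log2 RPKM in BXPC3 and at 3.04 and 2.93 in PANC1, a difference of 5.97 ± 0.25 log2 (adjusted p = 2.95e-09). Each line held 1 of the pair well above 1 RPKM and the other near or under it. FOXA1 (-4.33) and SOX2 (-1.38) were lower in PANC1, and the ductal factor SOX9 (2.37), NR5A2 (4.07), SOX17 (6.05) and ONECUT3 (6.31) higher.

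HOX genes, which record position along the body axis, differed by cluster. All 9 HOXB members were higher in PANC1 (median 3.36) and all 8 HOXC members too (median 2.83), and 8 and 7 of these were above 1 RPKM in all 4 libraries. HOXB9 was at 1.56 and 0.98 log2 RPKM in BXPC3 and at 7.18 and 7.25 in PANC1, a difference of 5.94 ± 0.16 log2 (adjusted p = 1.18e-10). HOXC10 was at 2.06 and 1.82 log2 RPKM in BXPC3 and at 7.56 and 7.41 in PANC1, a difference of 5.54 ± 0.11 log2 (adjusted p = 1.63e-11). HOXB7 differed least in its cluster (0.79) and HOXB8 most (7.38). HOXA members went both ways, with 3 higher and 6 lower, from HOXA10 (-6.87) to HOXA6 (3.01). Of the 9 HOXD genes listed 0 were members.

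Neural and neuroendocrine genes were higher in PANC1 in 12 of 14 members, with a median of 4.80, and 7 of the 14 reached 1 RPKM in PANC1 alone. The 4 above 1 RPKM in all 4 libraries had a median of 2.30. RET, the receptor of glial cell line-derived factors, was at -7.02 and -6.89 log2 RPKM in BXPC3 and at 6.46 and 6.4 in PANC1. L1CAM, a neural adhesion molecule, was at -0.25 and 0.13 log2 RPKM in BXPC3 and at 7.82 and 7.82 in PANC1, a difference of 7.88 ± 0.15 log2 (adjusted p = 1.63e-11). CHGB (7.33) and SYP (5.19), genes of secretory granules and vesicles, were higher as well. NRCAM (-3.71) and PCDH7 (-0.96) were lower in PANC1. CHGA was not among the members.

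Because the cells sat in collagen, their own matrix genes were examined in turn. Fibrillar and other collagen genes differed in all 19 listed members, 10 higher and 9 lower in PANC1, where 86.3% of all members in the comparison passed. COL11A1, a minor fibrillar collagen, was at -2.38 and -1.22 log2 RPKM in BXPC3 and at 8.16 and 8.38 in PANC1, a difference of 10.07 ± 0.32 log2 (adjusted p = 4.61e-10). COL1A1 was at 3.22 and 3.16 log2 RPKM in BXPC3 and at 6.52 and 6.49 in PANC1, a difference of 3.31 ± 0.07 log2 (adjusted p = 2.32e-11), and COL3A1 differed by 3.04. COL17A1, the collagen of hemidesmosomes, was at 10.42 and 10.74 log2 RPKM in BXPC3 and at -0.74 and -0.19 in PANC1, a difference of -11.05 ± 0.22 log2 (adjusted p = 1.99e-11). The collagen VI genes were out of step: COL6A1 was lower in PANC1 (-3.41) while COL6A2 (6.68) and COL6A3 (4.36) were higher, so that COL6A2 was at -0.45 and -1.38 log2 RPKM in BXPC3 beside 8.12 and 8.16 for COL6A1. COL18A1 (6.62) and COL5A2 (4.27) were higher in PANC1.

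Laminin genes separated by trimer. Chains of laminin-332, the anchor of epithelial cells to the basement membrane, were lower in PANC1: LAMA3 was at 8.61 and 8.61 log2 RPKM in BXPC3 and at 2.23 and 2.48 in PANC1, a difference of -6.26 ± 0.09 log2 (adjusted p = 2.17e-12), and LAMB3 differed by -7.18. LAMB2 (12.32) and LAMA4 (4.19) were higher and LAMC1 slightly so (0.89). Over the basement membrane list 6 of 17 members were higher, 9 lower, and 2 did not pass, HSPG2 (-0.04) among them. The chains of an integrin that binds laminin-332 were lower in PANC1 too, ITGA6 by a difference of -2.27 and ITGB4 of -1.95. Receptors for collagen differed as follows. ITGA1 was at 4.8 and 4.56 log2 RPKM in BXPC3 and at 0.10 and 0.66 in PANC1, a difference of -4.3 ± 0.17 log2 (adjusted p = 2.47e-09). ITGA2 (-1.38) and DDR1 (-0.72) were lower by less, the shared beta chain ITGB1 was slightly higher (0.32), and DDR2 was at -0.02 and -0.46 log2 RPKM in BXPC3 and at 1.83 and 2.14 in PANC1, a difference of 2.23 ± 0.28 log2 (adjusted p = 2.64e-05). ITGB6, a partner of ITGAV that activates TGF-beta, was lower (-8.76).

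Matrix proteases and their inhibitors were lower in PANC1 in 18 of 29 members and higher in 8, with a median of -1.82 (-1.79 over the 17 above 1 RPKM in all 4 libraries), while 3 did not pass, among them PLAU (0.07, and 0.11 without the first BXPC3 library, which then passed). MMP1, an interstitial collagenase, was at 8.32 and 7.66 log2 RPKM in BXPC3 and at 0.73 and 0.94 in PANC1, a difference of -7.15 ± 0.42 log2 (adjusted p = 4.56e-08). MMP14, a membrane-bound collagenase that activates MMP2, was at 10.03 and 10.12 log2 RPKM in BXPC3 and at 6.52 and 6.66 in PANC1, a difference of -3.48 ± 0.06 log2 (adjusted p = 6.93e-12). MMP2, a gelatinase, was at -3.7 and -2.67 log2 RPKM in BXPC3 and at 7.99 and 8.05 in PANC1, a difference of 11.2 ± 0.36 log2 (adjusted p = 4.17e-10). The activator and its substrate were thus higher in different lines. The inhibitor gene TIMP3 was at 9.05 and 8.91 log2 RPKM in BXPC3 and at -0.30 and -0.54 in PANC1, a difference of -9.4 ± 0.11 log2 (adjusted p = 8.18e-13). The plasminogen activator gene PLAT was lower in PANC1 (-6.79). Enzymes that cross-link or hydroxylate collagen were higher in PANC1 in 11 of 16 members, led by P4HA3 (4.4) and LOXL1 (3.35) and including LOXL2 (2.02) and PLOD2 (1.74). 1 did not pass, and LOXL3 (-2.58) and TGM2 (-2.14) were lower.

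Matricellular and hyaluronan genes divided 14 to 14. TNC, which encodes tenascin-C, was at -5.73 and -5.49 log2 RPKM in BXPC3 and at 5.84 and 6.11 in PANC1, a difference of 11.59 ± 0.24 log2 (adjusted p = 2.3e-11). CCN2, a growth factor-like matricellular gene and a YAP target, was at 0.36 and 0.59 log2 RPKM in BXPC3 and at 8.34 and 8.47 in PANC1, a difference of 7.93 ± 0.17 log2 (adjusted p = 2.94e-11). SPP1, encoding osteopontin (-4.87), and the hyaluronan synthase gene HAS2 (-3.68) were lower in PANC1, and the hyaluronan receptor gene CD44 was higher (1.03). YAP1 (0.32) and WWTR1 (1.16) were modestly higher in PANC1. Their listed targets split, with CCN1 (2.01) higher and ANKRD1 (-3.07), AJUBA (-2.45) and F3 (-7.68) lower. Over that list 11 of 20 were higher and 8 lower, shares near the 47.5% and 38.7% over all genes tested. With the median difference set to 0 the counts were 9 and 9.

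In the TGF-beta and BMP pathway, ligands were divided. TGFB1 (-1.34), BMP2 (-5.32) and BMP4 (-2.42) were lower in PANC1, and TGFB2 (2.27), BMP7 (3.77) and INHBB (9.91) higher. The receptors were nearer: TGFBR1 differed by 0.33 and TGFBR2 by -0.71, while BMPR1A was higher (2.02). Of all 32 members 15 were higher, 15 lower and 2 did not pass, where 47.5% of all genes tested were higher and 38.7% lower. SMAD2 (0.40) and SMAD3 (-0.12) were close to equal beside SMAD4 (10.26). The call of SMAD3 was lost without any of 3 of the 4 collagen libraries (limma, adjusted p = 0.0654, 0.0872 and 0.187 without BXPC3 1, BXPC3 2 and PANC1 1). It was also lost with the 4 collagen libraries alone (adjusted p = 0.0597) and without the variance trend (adjusted p = 0.0705). Among target genes 11 of 17 were higher in PANC1 and 5 lower. ID3, an inhibitor of differentiation induced by BMP signals, was at 2.73 and 2.56 log2 RPKM in BXPC3 and at 7.98 and 7.84 in PANC1, a difference of 5.26 ± 0.14 log2 (adjusted p = 1.59e-10). ID2 was at -2.8 and -2.15 log2 RPKM in BXPC3 and at 4.27 and 4.17 in PANC1, a difference of 6.69 ± 0.29 log2 (adjusted p = 4.52e-09). ID1 did not pass. It was at 10.3 and 10.48 log2 RPKM in BXPC3 and at 10.32 and 10.27 in PANC1, a difference of -0.10 ± 0.09 log2 (adjusted p = 0.341). CDKN1A (-1.59) and JUNB (-1.61) were lower in PANC1.

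EGFR-family receptors and ligands were lower in PANC1 in all 11 members, with a median of -3.63, and the 8 above 1 RPKM in all 4 libraries had a median of -2.31. EGFR was at 8.6 and 8.67 log2 RPKM in BXPC3 and at 7.86 and 8.03 in PANC1, a difference of -0.69 ± 0.07 log2 (adjusted p = 5.17e-06). It was abundant in both lines. ERBB3, the kinase-impaired partner of ERBB2, was at 6.89 and 6.92 log2 RPKM in BXPC3 and at 0.33 and 0.47 in PANC1, a difference of -6.5 ± 0.10 log2 (adjusted p = 3.98e-12). The ligand genes AREG (-5.1), EREG (-3.85), TGFA (-3.63) and HBEGF (-2.82) were lower. MAPK feedback genes did not go with them as a group, with 8 of 20 higher and 9 lower. DUSP4 (-8.8) and DUSP6 (-2.95) were lower in PANC1, SPRY4 (2.31) and DUSP1 (3.12) higher, and 3 did not pass. Of genes often altered in this cancer, BRAF (-0.38) differed by under 2-fold, MYC (0.07) did not pass, and RNF43 was lower (-3.84). CDKN2A, CDKN2B and MTAP were not among the members.

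Wnt and Notch genes differed in all 29 members, 14 higher and 15 lower, where 86.3% of all members in the comparison passed. JAG1, a Notch ligand, was at 8.9 and 9.03 log2 RPKM in BXPC3 and at 5.1 and 5.13 in PANC1, a difference of -3.86 ± 0.07 log2 (adjusted p = 8.53e-12). NOTCH1 was also lower in PANC1 (-2.1) and NOTCH3 higher (2.85). The Wnt effector gene TCF7 (3.86) and the secreted Wnt inhibitor gene NOTUM (6.62) were higher, and WNT7A (-8.34) lower.

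Interferon response genes were lower in PANC1 in 27 of 29 members, with a median of -2.97, and in 23 of the 24 above 1 RPKM in all libraries. IFI27 was at 9.33 and 9.38 log2 RPKM in BXPC3 and at -2.18 and -3.49 in PANC1, a difference of -12.19 ± 0.31 log2 (adjusted p = 9.47e-11). MX1, an antiviral GTPase gene, was at 5.73 and 6.02 log2 RPKM in BXPC3 and at 1.48 and 1.59 in PANC1, a difference of -4.34 ± 0.20 log2 (adjusted p = 7.46e-09). ISG15 (-2.97), OAS1 (-5.74) and BST2 (-5.31) were lower too. Of the list 1 member did not pass. IRF7, the transcription factor that amplifies the response, was the exception, at -4.27 and -4.27 log2 RPKM in BXPC3 and at 4.21 and 4.11 in PANC1, a difference of 8.43 ± 0.19 log2 (adjusted p = 4.29e-11). IRF7 was thus higher in the line where most of the list was lower.

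Antigen presentation genes were mixed, with 6 of 15 higher in PANC1, 7 lower and 2 not passing. B2M, the light chain of class I molecules, was at 11.16 and 11.28 log2 RPKM in BXPC3 and at 8.79 and 8.56 in PANC1, a difference of -2.55 ± 0.08 log2 (adjusted p = 2.65e-10). TAP2, a peptide transporter gene, was lower (-3.99), and HLA-B higher (1.38). The class I genes are a polymorphic multigene family, so their values are uncertain. Complement and immune regulator genes were lower in 18 of 21, among them C3 (-6.57), CD274, which encodes PD-L1 (-6.39), and TNFSF10 (-4.81), and CD40 was higher (4.32). CD274 was at 3.03 and 3.07 log2 RPKM in BXPC3 and at -2.92 and -3.75 in PANC1.

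Chemokine, cytokine and NF-kB target genes were lower in PANC1 in 19 of 31 members and higher in 9, and over the 18 above 1 RPKM in all 4 libraries in 10 and 6. IL1A was at 6.06 and 6.07 log2 RPKM in BXPC3 and at -4.46 and -3.86 in PANC1, a difference of -10.23 ± 0.31 log2 (adjusted p = 3.03e-10). CXCL10, a chemokine induced by interferon, was lower (-9.18), as were CXCL8 (-1.5) and LCN2 (-7.66). CXCL1 (0.10) and 2 others did not pass, and CXCL1 did (0.44) without the second BXPC3 library. Higher in PANC1 were CCL2, CX3CL1, CSF1 and ICAM1. CX3CL1 was at -1.63 and -5.24 log2 RPKM in BXPC3 and at 5.89 and 5.83 in PANC1, a difference of 9.29 ± 0.83 log2 (adjusted p = 1.45e-06), with BXPC3 libraries that lay far apart under 1 RPKM. CSF1, a macrophage growth factor gene, was at 4.57 and 4.21 log2 RPKM in BXPC3 and at 7.89 and 7.94 in PANC1, a difference of 3.53 ± 0.13 log2 (adjusted p = 1.33e-09).

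Hypoxia response genes went both ways, with 15 of 28 members higher in PANC1 and 9 lower, shares near the 47.5% and 38.7% over all genes tested. The other 4 did not pass, VEGFA (-0.11, and -0.23 without the second PANC1 library, which then passed) among them. STC2, a secreted glycoprotein gene, was at -1.88 and -1.75 log2 RPKM in BXPC3 and at 8.93 and 9.09 in PANC1, a difference of 10.83 ± 0.15 log2 (adjusted p = 2.09e-12). BNIP3 (13.02), SLC2A3 (6.14), ANGPTL4 (3.79) and ADM (3.37) were higher too. CA9, a carbonic anhydrase gene that responds to low oxygen, was at 4.28 and 5.67 log2 RPKM in BXPC3 and at 2.18 and 2.31 in PANC1, a difference of -2.73 ± 0.47 log2 (adjusted p = 0.000259). Its BXPC3 libraries were over 1 log2 apart. EGLN3 (-4.06), NDRG1 (-2.07) and the oxygen-regulated factor genes HIF1A (-3.26) and EPAS1 (-1.96) were lower. Glycolysis genes were nearer, with 12 of 21 higher, 4 lower and 5 not passing. GAPDH was at 11.93 and 11.99 log2 RPKM in BXPC3 and at 11.99 and 11.93 in PANC1. LDHA (1.2) and the lactate exporter gene SLC16A3 (1.65) were higher in PANC1, and FBP1, an enzyme of gluconeogenesis, was lower (-8.3).

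Xenobiotic and aldehyde metabolism genes were lower in PANC1 in 19 of 27 members, and in 10 of the 17 above 1 RPKM in all 4 libraries. CYP3A5, a drug-metabolising cytochrome, was at 5.3 and 5.49 log2 RPKM in BXPC3 and at -5.8 and -5.71 in PANC1, a difference of -11.15 ± 0.49 log2 (adjusted p = 4.71e-09). ALDH3A1 (-10.06), AKR1C2 (-10.31) and UGT1A6 (-9.16) were lower as well, and CES1 (5.68) and CYP1B1 (1.89) higher. The AKR1C genes are close copies, and their separate values are uncertain. Genes that handle gemcitabine, the nucleoside drug used for this tumour, were not all higher in one line. The uptake carrier gene SLC29A1, or ENT1, was at 2.94 and 2.71 log2 RPKM in BXPC3 and at 7.53 and 7.56 in PANC1, a difference of 4.72 ± 0.07 log2 (adjusted p = 3.87e-12). The concentrative carrier gene SLC28A3 was at 2.12 and 2.7 log2 RPKM in BXPC3 and at -6.5 and -6.36 in PANC1, a difference of -8.84 ± 0.48 log2 (adjusted p = 2.39e-08). CDA, whose enzyme deaminates the drug, was at 4.15 and 3.46 log2 RPKM in BXPC3 and at -1.58 and -2.55 in PANC1, a difference of -5.87 ± 0.38 log2 (adjusted p = 1.08e-07). DCK, the activating kinase gene, was slightly higher in PANC1 (0.73), RRM2 (2.08) and the efflux pump gene ABCG2 (4.58) higher, and 1 of the list did not pass. Over that list 12 of 20 were higher and 7 lower, beside 47.5% and 38.7% of all genes tested.

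Genes of DNA replication and mitosis were higher in PANC1 in 20 of 30 members and lower in 5, with a median of 0.51, and 0 of them were 4-fold apart. MKI67, a proliferation marker, was at 7.77 and 7.85 log2 RPKM in BXPC3 and at 7.73 and 7.97 in PANC1 and did not pass (0.04). BIRC5 (1.67) and BUB1 (1.57) were higher and PCNA lower (-1.06). With the median difference set to 0, the counts were 17 and 7. Cytosolic ribosomal protein genes had 16 of 40 higher and 13 lower with a median of 0.07, which became 13, 19 and -0.06 with the median difference set to 0, so no direction holds for them. Mitochondrially encoded genes had 1 of 13 higher and 6 lower, with a median of -0.13. Imprinted and germline-restricted genes went apart by gene. PRAME, a cancer-testis antigen gene, was at -4.88 and -4.77 log2 RPKM in BXPC3 and at 5.85 and 5.84 in PANC1, a difference of 10.67 ± 0.17 log2 (adjusted p = 5.74e-12). MAGEA3 was at 7.91 and 7.81 log2 RPKM in BXPC3 and at -4.29 and -3.17 in PANC1, a difference of -11.59 ± 0.76 log2 (adjusted p = 1.15e-07). Its near copies, such as MAGEA6 (-5.76), make its value uncertain. H19 was higher in PANC1 (1.8).

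The differences were not spread evenly over the genome. The median difference per chromosome was highest on chromosomes 2 (0.61), 17 (0.61) and 5 (0.57) and lowest on 13 (-0.63), 14 (-0.57) and 8 (-0.56). On chromosome 2 67.1% of members were higher and 23.5% lower, and on chromosome 14 19.6% and 69.2%. In GelMA the medians of these chromosomes were 0.60, 0.48, 0.38, -0.65, -0.61 and -0.52 in the same order. Copy number was not measured, and its part in these medians was not tested.

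**Figure D3:**
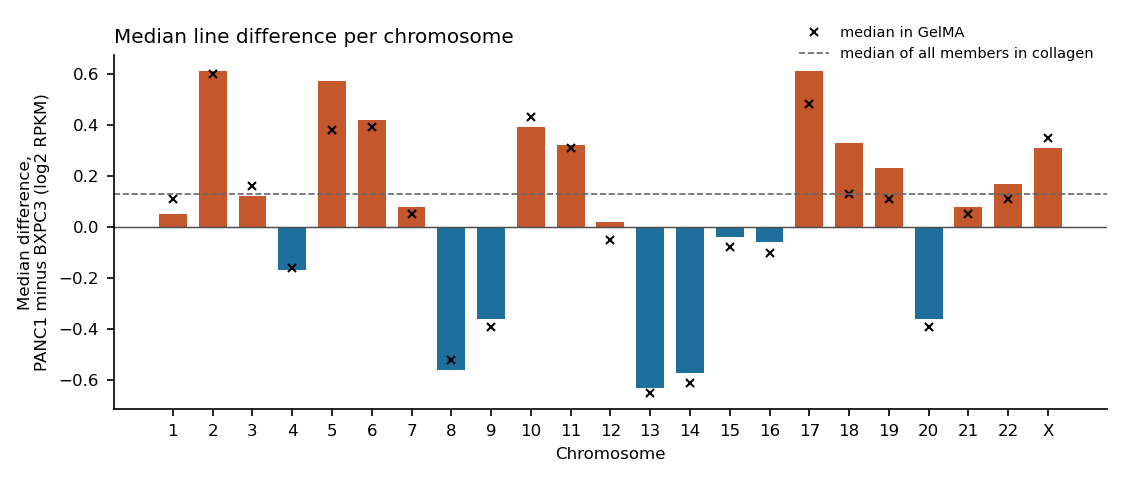
Median line difference (y axis, PANC1 minus BXPC3 in log2 RPKM) over the members of each chromosome (x axis) in collagen, as bars from 0, with crosses for the same genes in GelMA and the dashed line for the median of all members in collagen (0.13). The bars span from -0.63 on chromosome 13 to 0.61 on chromosomes 2 and 17, and the crosses of the 3 highest and 3 lowest chromosomes lie on the same side of 0 as the bars.

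Neighbouring genes also stood apart together. By a rule chosen after seeing the data, runs of at least 6 neighbouring members that all passed and were at least 4-fold apart in 1 direction numbered 8 higher in PANC1 (70 genes) and 11 lower (79 genes). Many were families in clusters: the HOXB genes on 17, the SPRR and S100 genes on 1, the SERPINB genes on 18, the AKR1C genes on 10 and the GBP genes on 1. Others held unrelated genes. Around PSAP on chromosome 10, 7 neighbours from CDH23 to ANAPC16 (71396934 to 72235860) were all under 1 RPKM in BXPC3, with a median difference of 8.86, and the next gene, DDIT4, was at a mean of 9.39 in BXPC3. On chromosome 21, 6 neighbours from TMPRSS2 to ZBTB21 (41464551 to 42010387), RIPK4 among them, had a median difference of 10.21 and were again under 1 RPKM in BXPC3 throughout.

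Beside SMAD4 the run was shorter. ME2 (11.32), ELAC1 (5.8), SMAD4 (10.26) and MEX3C (10.59) followed one another on chromosome 18 and lay between -6.01 and -4.92 log2 RPKM on average in BXPC3. Their outer neighbours, SKA1 and MBD2, were at 1.65 and 5.87. Chromosome 19 held runs of another kind, in which many genes were well above 1 RPKM in both lines. From SAMD4B to FCGBP (39342396 to 39934626) 16 genes had a median difference of 3.65, and from PSMC4 to ENSG00000205041 (39971005 to 40285536) 9 genes had 3.95. AKT2, a kinase gene in the second, was at 6.92 and 6.85 log2 RPKM in BXPC3 and at 10.74 and 10.87 in PANC1, a difference of 3.92 ± 0.04 log2 (adjusted p = 8.64e-13), and PAF1 in the first was at 7.26 and 7.2 log2 RPKM in BXPC3 and at 10.97 and 10.92 in PANC1, a difference of 3.71 ± 0.04 log2 (adjusted p = 4.25e-13). RPS16, a ribosomal protein gene in the first run, differed by 2.02. Whether DNA was lost or gained at these places was not measured.

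**Figure D4:**
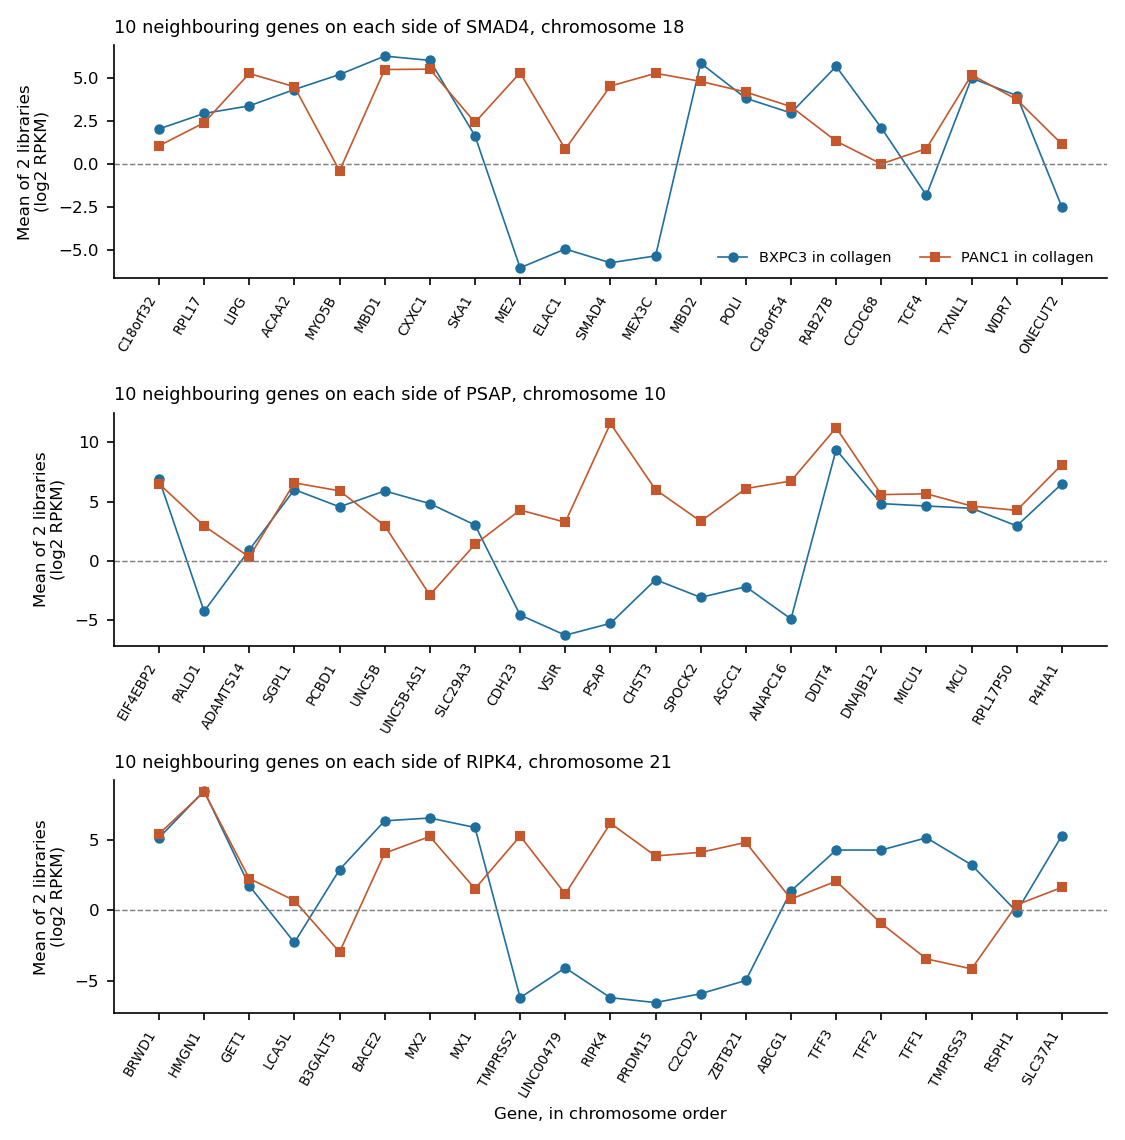
Mean level of 2 libraries (y axis, log2 RPKM) of 21 members in chromosome order (x axis), centred on SMAD4, PSAP and RIPK4 in turn, with BXPC3 in blue, PANC1 in orange and the dashed line at 1 RPKM. BXPC3 is under 1 RPKM for an unbroken run of 4 genes that includes SMAD4, 7 that include PSAP and 6 that include RIPK4, and is above it in the next gene on each side of each run. A few single genes farther out are under 1 RPKM too.

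Finally, the line difference in collagen was set beside that in GelMA, measured in other libraries. Of the 3860 members at least 4-fold apart in collagen, 3843 (99.6%) also passed in the same direction in GelMA and 3315 (85.9%) were at least 4-fold apart there. Over all members 12165 passed in both gels in the same direction, 394 in opposite directions, 798 in collagen and not in GelMA and 1345 in GelMA and not in collagen. Passing in one gel and not the other does not show a difference between gels, so that difference was tested itself. It passed for 6108 members, 3246 with a more positive line difference in collagen and 2862 with a more negative one, beside 39.1% of all genes tested. It was at least 2-fold for 1250.

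The genes with the largest dependence on the gel were of several kinds. SLC2A3, a glucose transporter gene, was at -2.8 and -2.89 log2 RPKM in BXPC3 and at 3.22 and 3.37 in PANC1 in collagen, a difference of 6.14 ± 0.39 log2 (adjusted p = 9.05e-08), and its difference in GelMA was 1.46. The gap between gels was 4.68 ± 0.48 log2 (adjusted p = 5.3e-05). SLC2A3 was under 1 RPKM in both lines in GelMA, so the size of that gap depends on the unknown offset. SFRP5, a secreted Wnt antagonist gene, differed by 6.38 in collagen and 1.19 in GelMA. PCDH15, a protocadherin gene, differed by 0.84 in collagen and -3.42 in GelMA, so the line that was higher changed. GNAZ (10.37 and 6.7), DMBT1 (-3.91 and -9.01) and ENSG00000267056 (-1.53 and -5.35) also had a more positive difference in collagen.

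In the other direction MUC2 differed by -12.69 in collagen and -7.58 in GelMA. Its mean in PANC1 in collagen was under 1 RPKM, so the size of that gap depends on the unknown offset. With 1 added to each RPKM before the log, its difference in collagen was -4.18. TFF3, a trefoil peptide gene, was at 3.93 and 4.63 log2 RPKM in BXPC3 and at 2.24 and 1.91 in PANC1 in collagen, a difference of -2.21 ± 0.24 log2 (adjusted p = 7.65e-06), and in GelMA it was higher in PANC1 (1.42). ALPP, a placental alkaline phosphatase gene with close copies, behaved likewise (-1.74 and 1.75). MPDZ (3.97 and 7.92), GRID1 (4.71 and 8.34) and ECEL1P1, a pseudogene (2.14 and 6.46), were higher in PANC1 in both gels and less so in collagen. Passing in opposite directions and at least 2-fold apart in each gel were 7 members, named here because they are so few: PRDM1, RAPGEF4, GDA, TFF3, ALPP, TMIE and CD24. CD24, a surface glycoprotein gene of epithelia, was at 8.03 and 8.02 log2 RPKM in BXPC3 and at 6.52 and 6.22 in PANC1 in collagen, a difference of -1.66 ± 0.08 log2 (adjusted p = 6.29e-09), and differed by 1.16 in GelMA.

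**Figure D5:**
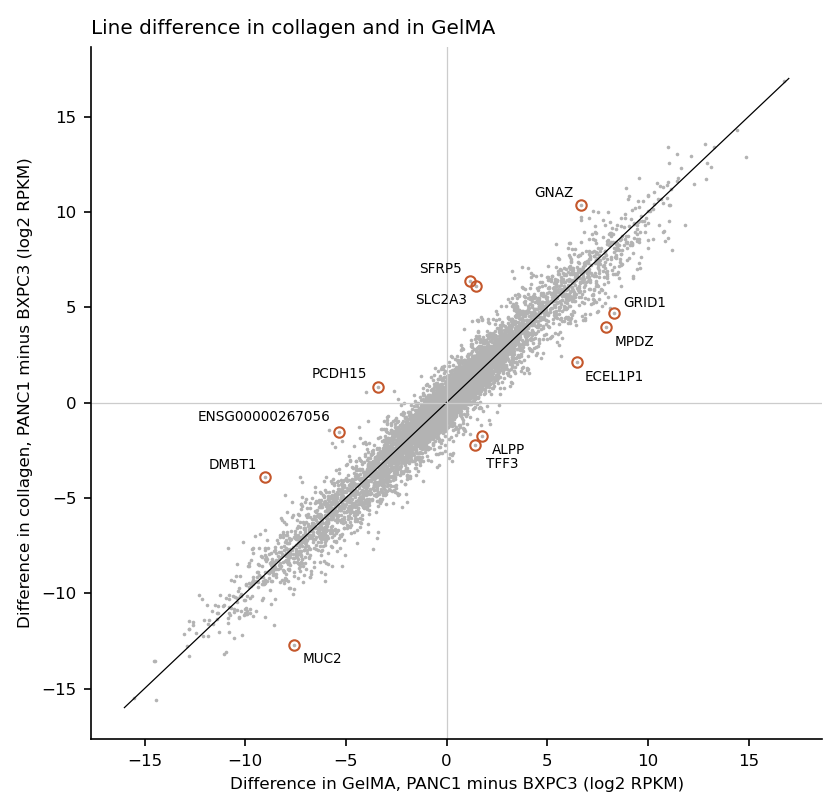
Line difference in collagen (y axis) against that in GelMA (x axis), both PANC1 minus BXPC3 in log2 RPKM, with a grey point for each of the 15471 members and the line of equal values. The 12 genes circled in orange have the largest gaps between gels in either direction among those with a mean of at least 3 log2 RPKM in their highest group, from MUC2 (-12.69 against -7.58) to SFRP5 (6.38 against 1.19).

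Line markers held across gels to different degrees. VIM differed by 6.34 in collagen and 6.66 in GelMA, and CDH1 by -4.17 and -3.55. CLDN7 differed by -1.44 in collagen and -2.77 in GelMA, and the gap was 1.33 ± 0.09 log2 (adjusted p = 5.14e-06). EHF had a gap of -3.11 ± 0.27 log2 (adjusted p = 2.06e-05) and TFF1 of -3.38 ± 0.41 log2 (adjusted p = 0.000166), both with lines further apart in collagen. Their means in PANC1 were under 1 RPKM in both gels, -4.33 in collagen and -1.28 in GelMA for EHF and -3.43 and -1.78 for TFF1. The size of these gaps thus depends on the unknown offset. Means in BXPC3 were 7.35 in collagen and 7.3 in GelMA for EHF, and 5.15 and 3.42 for TFF1. VEGFA, which did not pass in collagen, differed by -2.28 in GelMA with a gap of 2.17 ± 0.08 log2 (adjusted p = 2.09e-07), and CA9 by -2.73 and 0.28 with a gap of -3.01 ± 0.57 log2 (adjusted p = 0.00237). In GelMA the means of CA9 were under 1 RPKM in both lines, -2.0 in BXPC3 and -1.73 in PANC1. The size of its gap thus depends on the unknown offset as well. HSPG2, which encodes perlecan, differed by -0.04 and 1.24 with a gap of -1.28 ± 0.09 log2 (adjusted p = 4e-06). Of the hypoxia list 27 of 28 members passed the test of the gap, of the interferon list 22 of 29 and of the adherens junction list 8 of 13, beside 39.1% of all genes tested. Among squamous keratins 2 of 10 passed and among mucins 1 of 8. Of these, 9 keratins and 5 mucins reached 1 RPKM in BXPC3 alone. The standard error of the gap was 0.43 for KRT17 and 0.82 for MUC4, beside 0.07 for CDH1. It was smaller for KRT15 (0.08) and MUC16 (0.14), which were above 1 RPKM in both lines. The low counts therefore do not show that these lists were alike between gels.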

How the data were processed

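Poly-A RNA was sequenced from PANC1 and BXPC3 in collagen and in 5% and 7.5% GelMA, with 2 libraries in each of 6 groups. The submitters' processing notes name HISAT2 2.1.0, HTSeq and the build hg38. The authors deposited 1 table of log2 RPKM values for 16299 genes, per the file headers. Its libraries share 1 distribution: at 13758 ranks from the top they are equal within 0.05 log2 and at the 2541 lowest they are not, with values from -8.66 to 13.74. Counts are not part of the files used here, so no count model was fitted, the offset of low values is unknown, and a change shared by most genes would not be seen. Symbols and GRCh38 positions (GENCODE 29) were matched to all 16299 Ensembl IDs. limma 3.58.1 (R 4.3.3) was fitted with group means over all 12 libraries, with a variance trend, for the 15794 genes at or above 1 RPKM in at least 2 of 12, which left out 505. The 6 residual degrees of freedom were joined by 3.89 prior ones, and p-values were adjusted by the Benjamini-Hochberg method over all genes tested. The threshold for a call was an adjusted p of 0.05. GelMA differences average both concentrations. The fit was tested on simulated data. Replicate numbers did not pair the libraries: deviations of same-numbered collagen libraries correlated at 0.00664, and the 15 pairs of groups gave -0.0485 to 0.0771. Genes named by rank had to pass the test concerned. They are the 12 highest and 12 lowest differences in collagen with a mean of at least 3 log2 RPKM in the higher line. Also ranked were the 6 highest and 6 lowest gaps between gels with such a mean in the highest group. Further genes were named from 48 written lists, of which 47 had members. Genes named around the positional runs were chosen after their values were seen. The comparison and the lists were chosen with earlier results of these data known.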

Additional observations from a re-analysis of the deposited data

Results flagged for a closer look

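For the 12 genes named by the size of their gap, the line difference (PANC1 minus BXPC3, log2 RPKM) in collagen departed from that in GelMA by at least 2 log2. They were ranked among members that passed limma's test of the gap after Benjamini-Hochberg adjustment, so passing came with that choice. Genes named only from the lists were not flagged. Some of them also had gaps of at least 2 log2 that passed, such as TFF1 (-3.38), EHF (-3.11), CD24 (-2.82) and COL11A1 (2.8). Among the 12, the line difference was more positive in collagen for SFRP5 (5.19), which encodes a Wnt antagonist, DMBT1 (5.11), a mucosal scavenger receptor gene, the glucose transporter gene SLC2A3 (4.68), PCDH15 (4.26), ENSG00000267056 (3.82) and GNAZ (3.67). The mean of DMBT1 in GelMA was -5.55 in PANC1, under 1 RPKM, against 3.46 in BXPC3. SLC2A3 was under 1 RPKM in both lines in GelMA, with means of -4.3 and -2.84. The gap was negative for MUC2 (-5.11), ECEL1P1 (-4.32), MPDZ (-3.95), GRID1 (-3.63), TFF3 (-3.63) and ALPP (-3.49). The mean of MUC2 in PANC1 in collagen was under 1 RPKM, so the size of its gap depends on the unknown offset. TFF3 had means of 1.78 in BXPC3 and 3.21 in PANC1 in GelMA, so PANC1 was higher there and BXPC3 in collagen. MUC2 had adjusted p = 0.00684 for its gap and DMBT1 0.00562, the least certain of the 12 beside the others, which ranged from 8.95e-06 (ECEL1P1) to 0.00105 (ENSG00000267056).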

How the results depend on the processing

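With log2(RPKM + 1) in place of the deposited log2 RPKM, 1187 members were at least 4-fold higher in PANC1 in place of 1868, since the added 1 shrinks differences against a line under 1 RPKM. The other counts of called members stayed within 1.5 times of their values under every alternative run: the 4 collagen libraries alone, no filter, members only, no variance trend, recentring, the median difference set to 0 (chosen after seeing the data) and leaving out each collagen library. Without 1 library, the lone library of its group being assumed to vary like the others, members called higher numbered 7120 to 7176 and lower 5773 to 5851. With the replicate block 7341 were higher and 5987 lower. The deviations of same-numbered collagen libraries were close to uncorrelated, so the numbers name the libraries only.

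Of 266 results on single genes 251 kept their direction and their side of the threshold under every alternative run. Genes near equality changed sign. HSPG2 (-0.17), ID1 (-0.23) and VEGFA (-0.25) passed with the median difference set to 0, VEGFA (-0.17) also with recentring, and ZEB2 (0.31) without the variance trend. With the median difference set to 0, values were -0.04 for CXCL1, -0.08 for FOXA2, -0.13 for GAPDH, which then passed as lower, -0.04 for GAS6, -0.10 for MKI67, -0.07 for MYC and -0.07 for PLAU. Recentring gave -0.01 for FOXA2, -0.06 for GAPDH and -0.02 for MKI67. Leaving out 1 library gave ranges of -0.25 to 0.44 for CXCL1, -0.04 to 0.14 for FOXA2, -0.03 to 0.03 for GAPDH, -0.08 to 0.16 for MKI67, -0.52 to 0.08 for PDX1 and -0.23 to 0.00 for VEGFA. CXCL1 and LGALS4 (0.79) passed without the second BXPC3 library, PLAU (0.11) without the first and VEGFA (-0.23) without the second PANC1 library. SMAD3 and DSC2 lost their calls without single libraries, and SMAD3 also with the 4 collagen libraries alone and without the variance trend, as given above. Depth is unknown, and 2 libraries a group limit the precision.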
